A study of Ovis aries with 2 samples.

Results

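The interferon-responding endothelial cells of a native sheep carotid artery were 157 cell barcodes of 1 single-cell RNA library, out of 4295 endothelial barcodes in that library and 12600 barcodes in the series. Each had at least 1000 unique molecular identifiers (UMIs, 1 per captured RNA molecule) and at most 20% of its UMIs from mitochondrial genes. An endothelial barcode had at least 2 UMIs summed over the 7 genes PECAM1, CDH5, VWF, CLDN5, ESAM, TIE1 and TEK. That sum also had to be at least 2 times each of the summed smooth muscle, macrophage and T cell markers. A responding barcode held at least 2 UMIs of CXCL10, CXCL11 and IDO1 together, at a level of at least 1500 CPM, that is, UMIs of the 3 genes scaled to a barcode total of 1000000. The remaining 4138 endothelial barcodes of the artery, below that level, were the cells they were set against. The cells were thus chosen by the measured values of these 3 genes, which are given as a description.

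The study set this native artery beside an implanted acellular vascular graft titled H2R5-ATEV, with 1 library of each. Both came from sheep aged 1 to 2 years and were taken out 12 weeks after implantation, and cells were released by enzymes perfused inside the clamped vessel. The labels state no genetic change, are silent on the number of animals, and title the artery sample an aorta although its source is the carotid artery. With 1 library per tissue there was no replicate, no test was possible, and all intervals are 95% intervals that cover counting error only.

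Interferon gamma is a cytokine of T and natural killer cells that binds a receptor on vessel wall cells and signals through the kinases JAK1 and JAK2 to transcription factors that include IRF1. In endothelium the genes it is known to induce include the chemokines CXCL10 and CXCL11, which attract T cells, the enzyme IDO1, which breaks down tryptophan, guanylate-binding proteins and the machinery of antigen presentation. Type I interferons act through a related receptor and induce an overlapping set of antiviral genes. For groups of cells, UMIs were summed over the barcodes and scaled to CPM. Levels are compared between groups of cells and not between genes, since no gene lengths were used.

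The native library held 11371 barcodes and 43183715 UMIs, and the graft library 1229 barcodes and 36238351 UMIs, of which 6810 and 924 barcodes passed the UMI and mitochondrial limits. The libraries shared 7 barcode sequences, 2 of them kept in both and 0 among the responding cells. Responding cells gave 478198 UMIs in all and the remaining endothelial cells 19708133, so that 1 UMI was worth 2.09 CPM in the responding cells. The median barcode held 1952 UMIs and 1046 genes among responding cells, against 2968 UMIs and 1360 genes among remaining cells. Mitochondrial genes took a median of 2.37% of UMIs in responding cells and 3.01% in remaining cells. The responding cells were thus the shallower group, and what depth contributed to the differences given here was not tested beyond the splits by depth below.

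Responding cells made up 3.66% of the native endothelial barcodes (exact interval 3.11 to 4.26%). CXCL10 carried the choice, with UMIs in all 157 cells, while IDO1 was found in 49 and CXCL11 in 3. CXCL10 summed to 8482 CPM in responding cells and 49.9 CPM in remaining cells. IDO1 summed to 2008 CPM in responding cells and 12.1 CPM in remaining cells. CXCL11 summed to 257 CPM in responding cells and 0.254 CPM in remaining cells. All 3 cells with CXCL11 also held CXCL10 and IDO1, and no responding cell held IDO1 or CXCL11 without CXCL10.

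**Figure D1:**
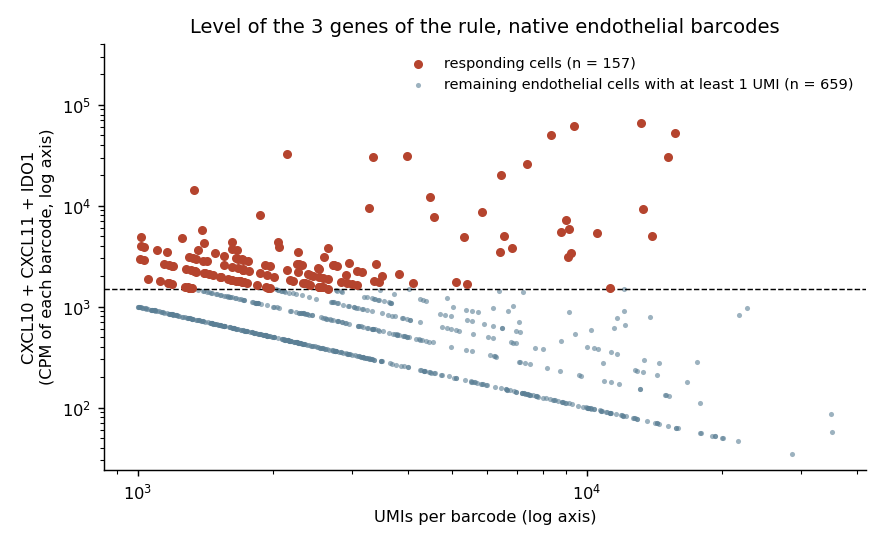
Level of CXCL10, CXCL11 and IDO1 together in CPM (y, log axis) against UMIs per barcode (x, log axis) for the 157 responding cells and for the 659 remaining endothelial cells with at least 1 UMI of the 3 genes. The dashed line is the level of 1500 CPM, and the diagonal rows of points are barcodes with equal whole numbers of UMIs.

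The level of the 3 genes ran from 1507 to 65767 CPM in responding cells, with a median of 2347, while 3479 of the remaining cells held none of their UMIs. There was no gap at the limit. The responding cells just inside it stood at 1507 and 1513 CPM, and the remaining cells just outside it at 1499 and 1495 CPM. Between 1500 and 2000 CPM there were 54 responding cells, and between 1000 and 1500 CPM there were 90 remaining cells with at least 2 UMIs of the 3 genes. In the plot of level against depth the low end of the responding cells joined the upper end of the remaining cells, and 12 cells stood at 10000 CPM or more.

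A small number of cells held most of the signal. The 10 responding cells with the most UMIs of the 3 genes, with 101 to 867 UMIs each, held 74.2% of those UMIs and 20.1% of all UMIs of the responding cells. All 10 held IDO1. At the other end 12 cells entered with exactly 2 UMIs. The 30 cells with at least 10 UMIs of the 3 genes had a median depth of 7079 UMIs per barcode, and the 127 cells with fewer had a median of 1713. A limit in raw UMIs itself favours deep barcodes. Results below are given with and without the 10 strongest cells, a split added after the data were seen.

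The share that reached the limit differed with depth. Among endothelial barcodes of 1000 to 1999 UMIs, 81 of 1525 responded (5.31%, 4.24 to 6.56%). Among those of 2000 to 4999 UMIs, 53 of 1394 did (3.8%, 2.86 to 4.94%), and among those of 5000 UMIs or more, 23 of 1376 did (1.67%, 1.06 to 2.5%). The share was lower in deeper barcodes, in which the same level takes more UMIs.

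The level did not use GBP2 and WARS1, but the cells and gene lists were chosen with earlier results of these data known. Their values are thus a description and do not test the name of the cells. GBP2, a guanylate-binding GTPase of cell-autonomous defence, stood at 473 CPM in responding cells and 48.8 CPM in remaining cells, a 9.68-fold ratio (8.34 to 11.2). WARS1, the tryptophanyl-tRNA synthetase, stood at 995 CPM in responding cells and 116 CPM in remaining cells, an 8.55-fold ratio (7.73 to 9.44). Both were higher over all responding cells, with intervals that cover counting error only. In the 81 responding cells of 1000 to 1999 UMIs the ratios were 1.26 (0.494 to 2.71) for GBP2 and 2.04 (1.35 to 2.99) for WARS1. PECAM1 and CLDN5, endothelial junction genes, were among the genes that chose both groups as endothelial, so their levels and the sum over the 7 are a description that the rule sets. They stood at 1976 and 514 CPM in responding cells, against 2233 and 426 CPM in remaining cells. The 7 genes summed to 3731 CPM in responding cells and 4033 CPM in remaining cells, against 209.8 CPM in the other native barcodes.

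**Figure D2:**
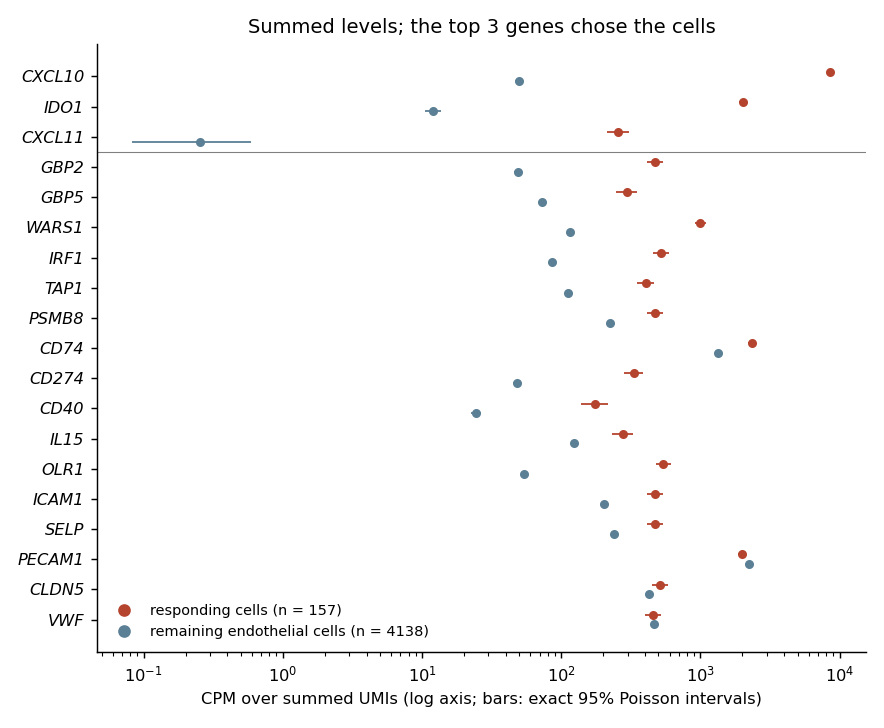
CPM over summed UMIs (x, log axis) for 19 genes in the responding cells (red) and the remaining endothelial cells (blue), with exact Poisson intervals. The 3 genes above the line chose the cells, and below it the interferon-linked genes stand higher in the responding cells while PECAM1, CLDN5 and VWF lie close together.

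The rule kept macrophage, T cell and smooth muscle markers low in both groups, and their levels are given only as a description. The 5 macrophage genes of the rule summed to 89.9 CPM in responding cells and 81.9 CPM in remaining cells, against 3170 CPM in the other native barcodes, and CD163 was at 0 in responding cells. A wider macrophage list of 12 genes, 8 of them in the files and including genes of the rule, stood at 109 CPM in responding cells and 95.1 CPM in remaining cells. A list of 14 T and NK cell genes, also including genes of the rule, stood at 92.0 CPM in responding cells and 80.6 CPM in remaining cells, with CD3D at 0 in responding cells. Smooth muscle genes of the rule gave 10.5 CPM in responding cells and 17.6 CPM in remaining cells. The rule did not use the other lists. Dendritic, mast, Schwann and lymphatic marker lists had 0 UMIs in responding cells, against 5.63, 1.93, 1.32 and 22.0 CPM in remaining cells. The first 3 lay below 6.27 CPM, the floor of 3 counts in responding cells, so a difference was not detectable. The lymphatic UMIs came from 0.797% of the remaining cells, and CCL21 gave 282 of the 434. With UMIs in so small a share of cells, 0 UMIs in responding cells cannot show a difference in that list either. A list of B and plasma cell genes had 1 UMI, or 2.09 CPM, against 44.5 CPM in remaining cells. A second lymphatic list summed to 18.8 CPM in responding cells and 27.2 CPM in remaining cells. Of its 5 measured genes 1 was at least 2-fold higher and 1 lower, beside 1.11% and 5.33% of all genes.

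Fibroblast genes were the list of another cell type that differed most in level between the groups. The 9 fibroblast genes summed to 1763 CPM in responding cells and 3676 CPM in remaining cells, and all 9 were present in responding cells. The difference lay in the deep barcodes. At 5000 UMIs or more the sum was 308 CPM in responding cells and 4084 CPM in remaining cells, and below 5000 UMIs it was 2913 CPM in responding cells and 2810 CPM in remaining cells. The part of fibroblast RNA in the comparisons below was not tested.

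Across the 11695 genes with a symbol and at least 10 UMIs over both groups, other than the 3 that chose the cells, 130 genes (1.11%) were at least 2-fold higher in responding cells and 623 (5.33%) at least 2-fold lower, after 5 CPM were added to both sides. The median log2 ratio over these genes was -0.15. Over the 557 of them with at least 100 UMIs in both groups it was 0.12. In simulated counts at the same group totals, 24 of 11507 genes without a change passed 2-fold upward and 143 downward. The simulation held counting error only and no variation between cells, so it does not measure what chance would give in the real cells. The 130 and 623 genes were counted in the same cells that the 3 genes chose, so the counts describe those cells and test nothing.

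The 12 highest genes by the naming rule were led by OLR1, the endothelial receptor for oxidised low-density lipoprotein. OLR1 stood at 542 CPM in responding cells and 54.4 CPM in remaining cells, a 9.95-fold ratio (8.65 to 11.4). GBP2 and WARS1 came next, with the values above. CD274, which encodes the checkpoint ligand PD-L1, stood at 332 CPM in responding cells and 47.9 CPM in remaining cells (6.93-fold, 5.82 to 8.21). CD40, a receptor for help from activated T cells, was 7.10-fold higher (5.55 to 8.97) and IRF1 6.13-fold higher (5.34 to 7.0). MX2, IFIT2, SOD2, TIFA and LAP3 followed at 4.17-fold to 5.00-fold. Among these MX2 and IFIT2 are antiviral genes, SOD2 is the mitochondrial superoxide dismutase, TIFA an adaptor of NF-kB signalling and LAP3 a leucine aminopeptidase.

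TCIM, a small regulator of transcription, differed from the other 11 because few cells carried it. It stood at 71.1 CPM in responding cells and 6.70 CPM in remaining cells (10.6-fold, 7.06 to 15.6), but 5 responding cells held all 34 of its UMIs. The 3 of them with IDO1 held 32 of the 34. Without the 10 strongest cells its ratio was 1.17. Among the remaining cells 87 held TCIM, and 9 of these held IDO1. Graft endothelial cells had TCIM at 50.7 CPM and 0 UMIs of IDO1. In the RefSeq annotation of the sheep assembly ARS-UI_Ramb_v3.0, IDO1, IDO2 and TCIM follow each other on chromosome 26. A link between TCIM and IDO1 was not tested. IDO2, a paralogue of IDO1, had 3 UMIs in responding cells, which is 6.27 CPM against 0.558 CPM in remaining cells (11.2-fold, 2.01 to 42.5).

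The receptors and kinases at the start of the interferon pathway stood closer together between the groups than IRF1. IFNGR1, the ligand-binding chain of the interferon gamma receptor, stood at 284 CPM in responding cells and 179 CPM in remaining cells (1.59-fold, 1.33 to 1.88). IFNGR2, its partner chain, had a ratio of 1.04 (0.749 to 1.4), JAK1 of 0.975 (0.786 to 1.2) and JAK2 of 0.913 (0.659 to 1.24). STAT2, which carries signals of type I interferons, had a ratio of 1.11 (0.831 to 1.45). IRF1, a transcription factor that interferon gamma induces, stood at 523 CPM in responding cells and 85.3 CPM in remaining cells.

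Of the 27 genes of the interferon signalling list, all measured, 7 passed 2-fold upward and 0 downward. The median log2 ratio was 0.65 (0.18 to 0.94) beside -0.15 over all genes. It was 0.28 (-0.02 to 0.66) without the 10 strongest cells and 0.30 (-0.21 to 0.50) below 5000 UMIs, with intervals that include 0. The 7 were IRF1, CIITA, BATF2, DTX3L, NLRC5, IRF7 and PARP9. BATF2, an interferon-induced transcription factor, rested on 8 UMIs in responding cells, at 16.7 CPM against 1.22 CPM in remaining cells. Among the brakes of the pathway, SOCS1 had a ratio of 1.91 (0.861 to 3.71) on 9 UMIs, SOCS3 of 0.811 (0.672 to 0.969), and PTPN2, a phosphatase that acts on the pathway, was 1.89-fold lower (1.23 to 3.05).

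The ligands themselves were not seen in the responding cells. IFNG, the gene of interferon gamma, had 0 UMIs there, which allows up to 6.27 CPM at a floor of 3 counts, and 3.45 CPM in remaining cells, so a difference was not detectable at this depth. TNF also had 0 UMIs in responding cells and CXCR3, the receptor of CXCL10 and CXCL11, had 0. IL18, a cytokine that supports interferon gamma production, stood at 234 CPM in responding cells and 189 CPM in remaining cells (1.24-fold, 1.02 to 1.49).

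The guanylate-binding protein and dynamin-like GTPase list held the highest median of the lists. All 5 of its measured genes, of 16 in the list, were at least 2-fold higher in responding cells, with a median log2 ratio of 1.94 and an interval of 1.23 to 3.15 over those 5 genes. After GBP2 and MX2 came GBP5, at 295 CPM in responding cells and 73.4 CPM in remaining cells (4.02-fold, 3.36 to 4.78). RNF213, a large ubiquitin ligase, and MX1 were both 2.42-fold higher over all responding cells, while RNF213 had a ratio of 0.870 (0.602 to 1.22) below 5000 UMIs. Without the 10 strongest cells the median of the list was 0.96.

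The type I interferon list had 15 of 26 measured genes past 2-fold upward and 0 downward, and its median log2 ratio was 1.14 (0.47 to 1.27). IFIT2, whose protein binds viral RNA, stood at 178 CPM in responding cells and 35.9 CPM in remaining cells (4.95-fold, 3.91 to 6.21). ISG15, a ubiquitin-like modifier, was 4.04-fold higher (3.38 to 4.80) and HERC6, a ubiquitin ligase, 4.40-fold higher (2.84 to 6.55). The RNA sensors DDX58 and IFIH1 were 3.14-fold and 2.31-fold higher over all responding cells, and below 5000 UMIs IFIH1 had a ratio of 0.952 (0.539 to 1.57). Without the 10 strongest cells the median of the list was 0.42 (0.16 to 0.78), which is lower but still above 0.

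Class I antigen presentation genes were higher by smaller ratios. Of 16 measured class I genes 6 passed 2-fold upward and 0 downward, and all 16 had a log2 ratio above 0, with a median of 0.57 (0.34 to 1.12) with all cells and 0.57 without the 10 strongest. TAP1, a chain of the peptide transporter, stood at 404 CPM in responding cells and 112 CPM in remaining cells (3.60-fold, 3.09 to 4.17). PSMB8, an immunoproteasome subunit, was 2.10-fold higher (1.83 to 2.40), and B2M, the class I light chain, 1.35-fold higher (1.09 to 1.65). Among 12 measured class II genes 2 were at least 2-fold higher, CIITA, the class II master regulator, at 6.14-fold (3.97 to 9.16) and HLA-DMA at 2.07-fold (1.64 to 2.59), and the median of that list was 0.60 (-0.20 to 0.89). CIITA rested on the strong cells, with a ratio of 2.20 (0.934 to 4.42) without the 10 strongest. CD74, the invariant chain, stood at 2336 CPM in responding cells and 1328 CPM in remaining cells (1.76-fold, 1.66 to 1.87).

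**Figure D3:**
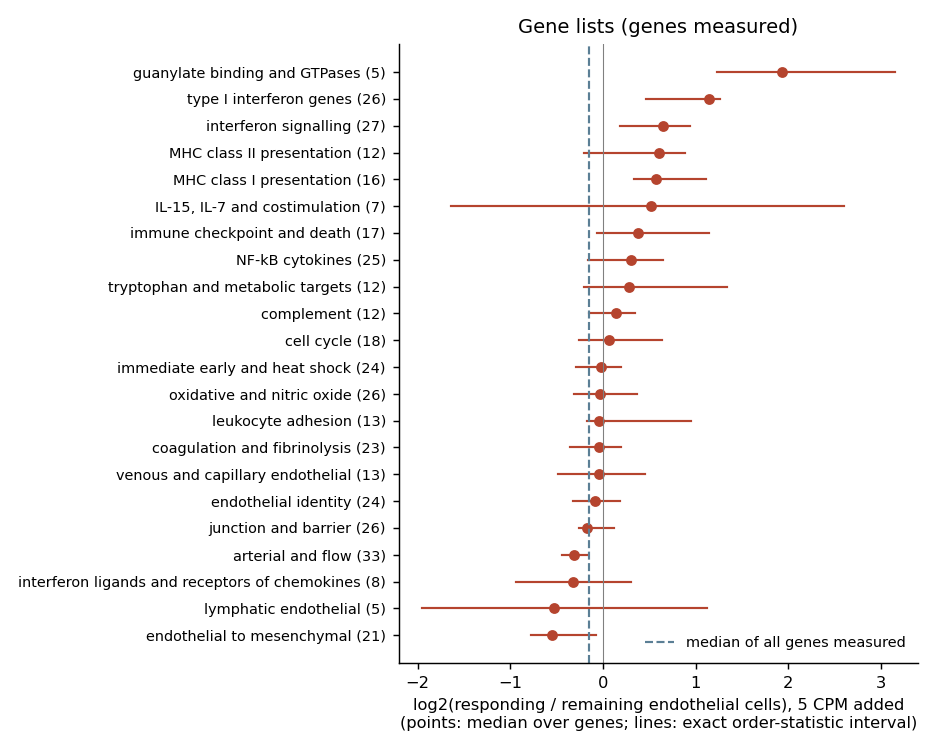
Median log2 ratio of responding over remaining endothelial cells, with 5 CPM added, for 22 gene lists (number of genes measured in brackets), with order-statistic intervals over the genes. The dashed line is the median of -0.15 over all 11695 genes, and the guanylate-binding list at 1.94 and the type I interferon list at 1.14 stand farthest above it.

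In the tryptophan and metabolic list 4 of 12 measured genes were at least 2-fold higher. LAP3 stood at 542 CPM in responding cells and 130 CPM in remaining cells (4.17-fold, 3.66 to 4.74), and ACSL5, a fatty acid activating enzyme, was 2.71-fold higher (2.03 to 3.54). The other two were WARS1 and IDO2. In the checkpoint and cell death list 6 of 17 measured genes were at least 2-fold higher and 0 lower. Beside CD274 these included TNFSF10, the death ligand TRAIL, at 201 CPM in responding cells and 70.0 CPM in remaining cells (2.87-fold, 2.31 to 3.53). They also included the death inhibitors CFLAR and BIRC3 at 2.79-fold and 2.53-fold.

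Inflammatory genes downstream of NF-kB had 6 of 25 measured genes past 2-fold upward and 0 downward, and a median log2 ratio of 0.30 (-0.16 to 0.65). IRF1 and BIRC3 were among these 6. SOD2 stood at 431 CPM in responding cells and 90.9 CPM in remaining cells. NFKB2 was 2.98-fold higher (2.17 to 4.02). PTGS2, the inducible prostaglandin synthase, was 1.79-fold higher over all responding cells (1.61 to 2.00) but had a ratio of 0.983 (0.832 to 1.15) without the 10 strongest cells.

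Of 13 measured leukocyte adhesion genes 2 were at least 2-fold higher. ICAM1, the integrin ligand for firm adhesion, stood at 473 CPM in responding cells and 202 CPM in remaining cells (2.34-fold, 2.03 to 2.67), and CD47 was 2.16-fold higher (1.83 to 2.54), with a ratio of 0.775 (0.503 to 1.14) below 5000 UMIs. SELP, the selectin on which leukocytes roll, was 1.95-fold higher (1.70 to 2.23). The median of that list was -0.04, so most of its genes were not higher. Of 7 measured costimulation genes 3 were at least 2-fold higher and 1 lower, beside 1.11% and 5.33% of all genes. The median log2 ratio of these 7 was 0.52 (-1.64 to 2.60), an interval that spans both directions. Among them ICOSLG, the ligand of the T cell receptor ICOS, was 5.32-fold higher (3.32 to 8.16). IL15, a growth factor of T and NK cells, was 2.26-fold higher (1.88 to 2.69) with all cells and had a ratio of 0.830 (0.589 to 1.14) without the 10 strongest.

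Most arterial genes stood within 2-fold. Of 33 arterial and flow genes 0 passed 2-fold upward and 4 downward, beside 1.11% upward and 5.33% downward over all genes. The median log2 ratio of the list was -0.31 (-0.44 to -0.16), beside -0.15 over all genes. It was -0.19 (-0.40 to 0.04) without the 10 strongest cells and -0.22 (-0.45 to 0.03) below 5000 UMIs, with intervals that include 0. The flow-induced transcription factors KLF2 and KLF4 each had a ratio of 1.05, with intervals of 0.932 to 1.19 and 0.888 to 1.24. NOS3, the endothelial nitric oxide synthase, was 1.34-fold lower (1.15 to 1.58). The gap junction gene GJA5, an arterial marker, was 1.16-fold lower (1.03 to 1.31). Of 24 endothelial identity genes 0 passed 2-fold either way, but these include the 7 genes that chose both groups as endothelial.

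The 4 arterial genes at least 2-fold lower were CXCL12, UNC5B, EFNB2 and NRP1. EFNB2, an arterial ephrin ligand, stood at 27.2 CPM in responding cells and 72.4 CPM in remaining cells (2.66-fold lower, 1.55 to 5.01). CXCL12, a chemokine of arterial endothelium, had 2 UMIs in responding cells, or 4.18 CPM, against 33.0 CPM in remaining cells (7.89-fold lower, 2.17 to 65.3). Each of the 4 rested on at most 13 UMIs in responding cells.

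MECOM and ELN, which stood below the 2-fold limit, had more counts behind them. ELN, the gene of elastin, stood at 1228 CPM in responding cells and 2268 CPM in remaining cells (1.85-fold lower, 1.70 to 2.01), and it was 2.68-fold lower among barcodes of 5000 UMIs or more and 1.36-fold lower below 5000. MECOM, a transcription factor of arterial endothelium, stood at 987 CPM in responding cells and 1581 CPM in remaining cells (1.60-fold lower, 1.46 to 1.76). In MECOM the difference lay in shallow cells. Its ratio was 0.941 (0.841 to 1.05) at 5000 UMIs or more, and it was 2.66-fold lower (2.26 to 3.15) below that depth.

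The 12 lowest genes by the naming rule did not come from 1 fixed list. NCKAP5 had 2 UMIs in responding cells, or 4.18 CPM, against 63.1 CPM in remaining cells (15.1-fold lower, 4.17 to 125). LIMK1, a kinase of the actin regulator cofilin, was 6.42-fold lower (3.11 to 16) and SEMA4A, a semaphorin, 5.91-fold lower (3.58 to 10.6). NFATC1, a calcium-responsive transcription factor, stood at 27.2 CPM in responding cells and 152 CPM in remaining cells (5.57-fold lower, 3.25 to 10.5). CHSY3, a chondroitin sulphate synthase, stood at 69.0 CPM in responding cells and 343 CPM in remaining cells (4.96-fold lower, 3.53 to 7.22). FLRT2, GFOD1, TEAD1, ZNF385B, SUGCT, VWA8 and SKI were between 3.30-fold and 5.31-fold lower. TEAD1 is a DNA-binding partner of YAP, and SKI represses signalling by TGF-beta.

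Without the 10 strongest cells each of these 12 genes was at least 3.51-fold lower, with NCKAP5 at 12.1-fold. Those 10 cells held 20.1% of the UMIs of the responding cells, so leaving them out could raise these levels only slightly. That split thus cannot show whether the low levels depended on the strongest cells. Below 5000 UMIs each was at least 2.43-fold lower. The 2 UMIs of NCKAP5 and the 7 of LIMK1 leave their ratios wide.

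Collagen genes were lower in responding cells over all depths together. COL3A1 stood at 291 CPM in responding cells and 689 CPM in remaining cells (2.37-fold lower, 2.01 to 2.82), and COL1A1 was 2.07-fold lower (1.73 to 2.49) but had a ratio of 1.08 (0.894 to 1.30) below 5000 UMIs. They belong to a list for endothelial to mesenchymal change in which 4 of 21 measured genes were at least 2-fold lower and 0 higher, beside 5.33% lower and 1.11% higher over all genes. COL3A1 followed the fibroblast list above, at 75.8 CPM in responding cells and 789 CPM in remaining cells from 5000 UMIs, against 461 CPM in responding cells and 477 CPM in remaining cells below that depth. In shallow cells the groups thus did not differ beyond counting error for COL3A1 (ratio 0.966, 0.80 to 1.16).

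Counts in the lists of other functions stand beside 1.11% of all genes higher and 5.33% lower. Immediate early and heat shock genes, often raised by enzymatic dissociation, had 0 of 24 measured genes past 2-fold either way, and FOS stood at 4607 CPM in responding cells and 4680 CPM in remaining cells. In the junction list 1 of 26 genes was at least 2-fold lower. Coagulation genes had 1 higher and 1 lower of 23, oxidative and nitric oxide genes 1 higher of 26, complement genes 1 lower of 12 and cell cycle genes 2 higher of 18. The venous and capillary list had 0 of 13 past 2-fold either way.

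The responding cells were not 1 uniform group. The 49 cells with IDO1 had GBP2 at 839 CPM, WARS1 at 1604 CPM, CD274 at 584 CPM and OLR1 at 855 CPM. The 108 without IDO1 had GBP2 at 93.6 CPM, WARS1 at 366 CPM, CD274 at 72.3 CPM and OLR1 at 217 CPM. The first were also deeper, with a median of 3162 UMIs against 1712. In the 3 cells with CXCL11 GBP2 reached 2337 CPM and OLR1 2579 CPM, while PECAM1 stood at 430 CPM on 16 UMIs. Over the 10 strongest cells the 7 endothelial genes summed to 2765 CPM, against 3974 CPM in the other 147.

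**Figure D4:**
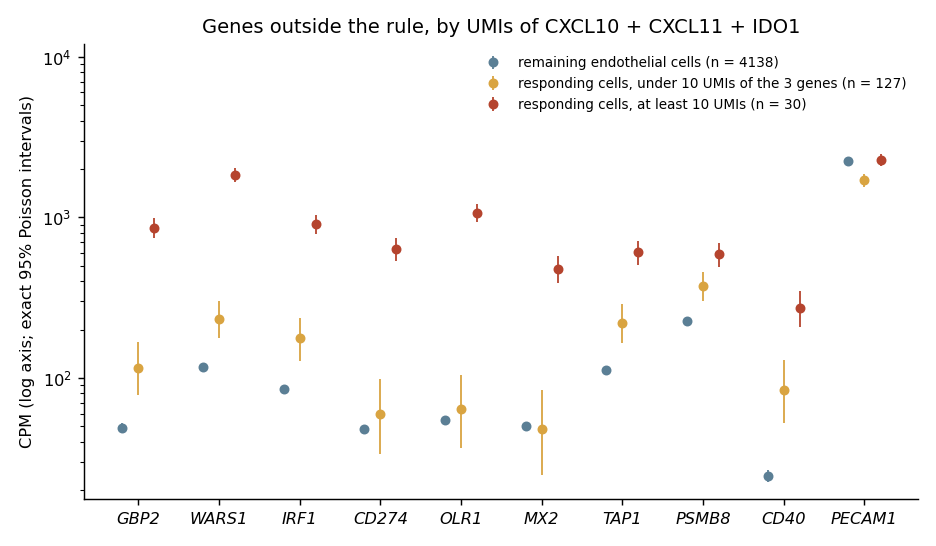
CPM (y, log axis, exact Poisson intervals) of 10 genes outside the rule in remaining endothelial cells, in responding cells with under 10 UMIs of CXCL10, CXCL11 and IDO1, and in responding cells with at least 10. In the 30 strong cells all but PECAM1 stand above the other two groups, while in the 127 weaker cells OLR1, CD274 and MX2 lie within counting error of the remaining cells.

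The weaker cells carried part of the pattern. In the 127 cells with under 10 UMIs of the 3 genes, GBP2 stood at 116 CPM (77.7 to 167), WARS1 at 232 CPM (176 to 300), IRF1 at 176 CPM (128 to 236) and TAP1 at 220.0 CPM (166 to 286), all above the remaining cells. OLR1 stood there at 64.0 CPM (36.6 to 104), CD274 at 60.0 CPM (33.6 to 99.0) and MX2 at 48.0 CPM (24.8 to 83.9), not separable from the remaining cells at this depth. In the 30 cells with at least 10 UMIs, GBP2 stood at 863 CPM, WARS1 at 1831 CPM, OLR1 at 1065 CPM, CD274 at 631 CPM and MX2 at 473 CPM. For OLR1, first by naming order over all responding cells, the excess thus lay in the strong cells.

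Without the 10 strongest cells the remaining 147 still differed in these genes by smaller ratios. OLR1 was 6.15-fold higher (5.08 to 7.40), WARS1 4.41-fold (3.79 to 5.10), CD40 4.17-fold (2.93 to 5.79) and GBP2 3.81-fold (2.95 to 4.85). IRF1 was 3.34-fold higher (2.73 to 4.06), LAP3 3.29-fold (2.79 to 3.85), CD274 3.28-fold (2.48 to 4.25), TAP1 2.68-fold (2.21 to 3.24) and MX2 2.03-fold (1.44 to 2.80).

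The ratios of GBP2, WARS1 and OLR1 were largest in the deepest barcodes. GBP2 had a ratio of 1.26 (0.494 to 2.71) at 1000 to 1999 UMIs, 4.0 (2.57 to 6.0) at 2000 to 4999 and 18.1 (15.4 to 21.3) at 5000 and more. WARS1 had ratios of 2.04 (1.35 to 2.99), 3.49 (2.64 to 4.53) and 16 (14.3 to 17.9) over the same bands, and OLR1 of 1.34 (0.597 to 2.63), 1.56 (0.883 to 2.58) and 22.4 (19.2 to 26.1). In the shallowest band 2 to 3 UMIs of CXCL10 were enough to pass the limit, and the excess of GBP2 and OLR1 was not detectable there.

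With each barcode thinned to 1000 UMIs, at least 2 UMIs of the guanylate-binding list were found in 17.8% of responding cells (12.2 to 24.7%) and 7.61% of remaining cells (6.82 to 8.46%). Without the 10 strongest cells the responding share was 13.6% (8.51 to 20.2%). For the class I presentation list the shares were 88.5% of responding cells (82.5 to 93.1%) and 70.9% of remaining cells (69.4 to 72.2%). For the type I interferon list they were 65.0% of responding cells (57.0 to 72.4%) and 43.8% of remaining cells (42.3 to 45.3%). That responding share was 62.6% (54.2 to 70.4%) without the 10 strongest cells. For the interferon signalling list the shares were 72.0% of responding cells (64.3 to 78.8%) and 64.4% of remaining cells (62.9 to 65.9%), with intervals that overlap.

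Genes outside the rule also differed among the remaining cells. In the 3479 remaining cells with 0 UMIs of the 3 genes GBP2 stood at 43.4 CPM (40.3 to 46.7) and WARS1 at 96.9 CPM (92.2 to 102). In the 659 with some UMIs they stood at 78.5 CPM (68.9 to 89.1) and 223 CPM (207 to 240). In the responding cells up to their median level GBP2 stood at 108 CPM (64.9 to 168) and WARS1 at 199 CPM (138 to 276), which does not differ from the 659 cells beyond counting error. In the responding cells above the median level they stood at 686 CPM (595 to 786) and 1461 CPM (1327 to 1604), apart from all the others.

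Genes without a symbol were also measured, and 61 of 3029 were at least 2-fold higher in responding cells and 154 at least 2-fold lower. The identifier ENSOARG00020040993 stood at 2696 CPM in responding cells and 132 CPM in remaining cells (20.4-fold, 19.1 to 21.9). The identifier ENSOARG00020033876 had 40 UMIs in responding cells and 12 in remaining cells. No name could be given to either.

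Other cells of the artery reached the same level too. Beside the 157 of 4295 endothelial barcodes, and by the same marker logic, 16 of 633 native macrophage barcodes reached it (2.53%, 1.45 to 4.07%), 12 of 1023 fibroblast barcodes (1.17%, 0.608 to 2.04%), 1 of 493 T or NK barcodes (0.203%, 0.00514 to 1.12%) and 0 of 64 smooth muscle barcodes, which allows up to 4.69%. The intervals of fibroblasts and of T or NK cells lay below that of endothelial cells, while those of macrophages and smooth muscle overlapped it. In all 194 of the 6810 native barcodes reached the level. These classes differed in median depth, from 2907 UMIs in endothelial to 10733 in macrophage barcodes.

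Thinned to 1000 UMIs, 10.9% of native endothelial barcodes (9.98 to 11.9%) held at least 1 UMI of the 3 genes, against 10.6% of macrophages (8.30 to 13.2%) and 1.22% of T or NK cells (0.448 to 2.63%). Between these stood native fibroblasts at 3.91% (2.81 to 5.29%) and smooth muscle cells at 1.56% (0.0396 to 8.40%). T or NK cells stand here as a comparison class, and whether their UMIs came from free RNA was not tested. Without thinning the shares were 19.0% of endothelial barcodes, 32.9% of macrophage barcodes and 5.68% of T or NK barcodes, at median depths of 2907, 10733 and 5809 UMIs. Endothelial cells and macrophages did not differ in the thinned share beyond counting error.

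**Figure D5:**
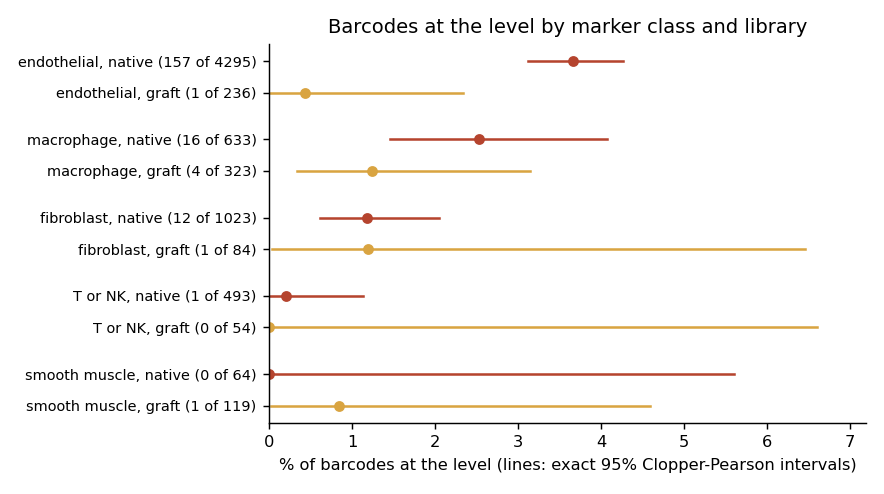
Percent of barcodes in each marker class that reached the level of 1500 CPM (x), for the native artery (red) above the graft (yellow), with exact Clopper-Pearson intervals and the counts in brackets. Native endothelial and macrophage barcodes stand highest at 3.66% and 2.53%, and 1 of 236 graft endothelial barcodes reached the level.

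Macrophages at the level shared some of these genes but not all. The 16 native macrophages at the level had WARS1 at 443 CPM (346 to 560), CD274 at 184 CPM (123 to 264) and MX2 at 798 CPM (665 to 950). The 617 native macrophages below it had WARS1 at 29.5 CPM, CD274 at 25.4 CPM and MX2 at 113 CPM. OLR1 stood at 76.0 CPM (39.3 to 133) in the 16 and 56.9 CPM (51.4 to 62.8) in the 617, which overlap. CXCL11 stood at 257 CPM in the responding endothelial cells and 975 CPM in the 16 macrophages.

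Against the 157 of 4295 endothelial barcodes in the artery, 1 of 236 endothelial barcodes in the graft reached the level (0.424%, 0.0107 to 2.34%). The graft barcodes had a median of 30960 UMIs, and their interval overlapped that of the artery's barcodes of 5000 UMIs or more, of which 1.67% responded (1.06 to 2.5%). Thinned to 1000 UMIs, the share with at least 1 UMI of the 3 genes was 10.9% in the artery and 0.847% in the graft (0.103 to 3.03%). IDO1 had 0 UMIs in the graft endothelial barcodes. Of their 109 UMIs of CXCL10, 91 were in the single barcode at the level, and CXCL10 stood at 1.74 CPM (1.03 to 2.76) in the other 235.

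GBP2 stood at 473 CPM in responding native cells and 9.26 CPM in graft endothelial cells. WARS1 stood at 995 CPM in responding native cells and 68.0 CPM in graft endothelial cells, and MX2 at 251 CPM in responding native cells and 3.86 CPM in graft endothelial cells. For all 3 the graft level was also below that of the remaining native endothelial cells. OLR1 went the other way, at 542 CPM in responding and 54.4 CPM in remaining native cells, against 1653 CPM (1628 to 1678) in graft endothelial cells. Tissue and library cannot be told apart in that comparison.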

How the data were processed

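Single-cell RNA libraries of 1 native sheep carotid artery and 1 graft were used. The deposited matrices hold raw UMI counts made with Cell Ranger 7.2.0, per the file headers. Among tools with no stated role, the submitters' processing notes list Seurat 5.0.0, R 4.3.3 and bcl2fastq 2.20.0.422. Their genome build is not given in the sources used here. Of 21890 features 6435 had no symbol, holding 22.7% of native UMIs.

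The responding cells and all gene lists were chosen with earlier results of these data known. UMIs were summed per group and scaled to CPM with Python 3.11.15, numpy 2.4.6, scipy 1.17.1, pandas 2.3.3 and scanpy 1.11.5. CPM carry exact Poisson intervals, ratios exact conditional binomial intervals and shares exact Clopper-Pearson intervals, all at 95%. Cells were not treated as replicates and no p-value was computed. Log2 ratios had 5 CPM added, and a gene needed 10 UMIs over both groups. The 12 highest and 12 lowest genes were named if the higher group had at least 50 CPM and 30 UMIs, and at least 50% of the CPM of the native barcodes that were not endothelial. Haemoglobin, immunoglobulin, mitochondrial and ribosomal protein genes and the 3 genes of the rule were left out. Other genes were named from the lists, and 1 gene is not reported here. No doublets were removed, since Scrublet in scanpy marked 0 barcodes at its automatic threshold. Thinning drew 1000 UMIs per barcode with seed 1. The scripts were tested on simulated counts. Promoter motifs were not analysed here.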

Additional observations from a re-analysis of the deposited data

How the results depend on the processing

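No result had a test, so calls here mean the 2-fold limit, and results with 1 library per tissue had no replicate to leave out. No paired analysis was possible because each tissue had 1 library. In all 23 settings were run, 2 of them (without the 10 strongest cells, and only barcodes below 5000 UMIs) added after the data were seen. The share, the gene counts, the list medians and the 24 genes of the naming rule were recomputed. No list median or gene of the naming rule whose interval excluded 0 changed sign, and shares and gene counts have no sign. Other genes of the lists were recomputed only by strength and depth. Among those called over all cells, without the 10 strongest the ratio was 0.830 for IL15, 0.957 for IFI44 and 0.980 for RSAD2, and IDO2 had 0 UMIs. Below 5000 UMIs it was 0.763 for IL15, 0.775 for CD47, 0.870 for RNF213, 0.952 for IFIH1, 0.675 for F2R and 1.08 for COL1A1, and IDO2 and RELN had 0 UMIs. From 5000 UMIs UBE2C had 0 UMIs. Of 481 list medians computed under the alternatives 455 stayed inside the order-statistic interval of the main median. Such intervals can be wide, and the interferon signalling median, 0.65 in the main setting, still lay inside its interval at 0.19 when thinned.

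The share of responding cells, 3.66%, was 2.74% from 2000 UMIs, 1.67% from 5000 UMIs, 1.16% at a level of 3000 CPM (50 cells), 7.01% at 750 CPM (301 cells), 0.373% with IDO1 alone (16 cells) and 0.0466% with CXCL11 alone (2 cells, for which no gene values were computed). The 130 genes at least 2-fold higher became 334 at 3000 CPM, 58 at 750 CPM, 736 with IDO1 alone, 389 from 5000 UMIs, 219 below 5000 UMIs, 407 when thinned, 86 with median-ratio scaling, 380 with 1 CPM added and 53 with 20 CPM added. The 623 at least 2-fold lower became 1235, 365, 2539, 1527, 1162 and 1619 under the first 6 of these settings, 1966 with 1 CPM added and 126 with 20 CPM added. Counts of genes past the limit thus depended on the added CPM, and the cause of the other shifts was not tested.

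The guanylate-binding median of 1.94 was 0.98 when thinned, 1.10 with equal weight per barcode, 0.96 without the 10 strongest cells and 0.76 below 5000 UMIs. The type I interferon median of 1.14 was 1.36 from 2000 UMIs, 1.69 from 5000 UMIs, 1.64 at 3000 CPM, 2.24 with IDO1 alone, 0.42 without the 10 strongest cells and 0.39 below 5000 UMIs. With IDO1 alone the medians were 1.08 for interferon signalling, 1.23 for checkpoint and death, -0.91 for arterial and flow, -0.42 for endothelial identity, -0.30 for junction, -0.45 for coagulation, -0.41 for oxidative and -0.64 for immediate early genes. The arterial median was also -0.60 at 3000 CPM, -0.45 from 5000 UMIs and -0.15 with equal weight per barcode, and the junction median -0.28 with median-ratio scaling. The endothelial to mesenchymal median was -0.80 from 5000 UMIs and -0.064 below, and the immediate early median -0.43 at 3000 CPM and -0.62 from 5000 UMIs. Leaving out the highest Scrublet scores removed 5 of the 157 cells.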
